A study of Rattus norvegicus with 9 samples.

Results

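The antioxidant target genes of the transcription factor Nrf2 were followed in dorsal root ganglion (DRG) RNA of rats with and without nerve injury and with the GPER antagonist G15. The list held 9 genes of the 20194 in the table: Hmox1, Nqo1, Nqo2, Gclc, Gclm, Srxn1, Txnrd1, Slc7a11 and Gsr. They were named as textbook Nrf2 targets, and Hmox1 and Nqo2 were also selected on their measured levels, which moved in opposite directions between the SNI + G15 and SNI groups. That contrast is therefore described here for the 9 genes without a test. Of the 9, 8 passed the filter on low values, FPKM (read fragments scaled to transcript length and library size) reaching 1 in any library, which left 14305 genes for testing. Slc7a11 did not pass it.

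Nrf2, encoded by Nfe2l2, is held at a low level by Keap1, which marks it for degradation, and it accumulates when oxidants or electrophiles modify Keap1. It then pairs with a small Maf protein on antioxidant response elements (AREs), which the repressor Bach1 can also occupy. Its targets degrade heme, reduce quinones, make and recycle glutathione, and supply the thioredoxin system, and in ganglia such genes can be expressed by neurons, glia and immune cells.

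RNA was sequenced from 3 sham, 3 SNI and 3 SNI + G15 libraries, all from adult male Sprague-Dawley rats. In spared nerve injury (SNI) the tibial and common peroneal branches of the sciatic nerve are ligated and cut and the sural branch is left intact, whereas sham rats had surgery without that lesion. SNI + G15 rats received G15 through an intrathecal catheter placed on day 5 after the lesion, for which the labels give 24 h of drug in 2% DMSO. The labels mark the sham and SNI libraries as controls for G15, and the same general protocol text on catheter and DMSO stands with all 9 samples, with no separate account of what the sham and SNI rats received. The study's methods give 1 library per rat, but a supplementary animal list gives more rats for sequencing than there were libraries, and pooling is not described. If rats or libraries were not independent, p-values measure only the spread between these libraries. Estimated reads per library totalled between 18484557 and 18756736, so depth hardly differed. Although the labels give DRG as the tissue, their extraction text speaks of macrophages, so the tissue was checked with 10 sensory neuron markers, none of which was at 0 in any group, and their summed level lay between 18200 and 21300 CPM (counts scaled to library size). The 8 Schwann cell markers were also present in all groups, and 5 skeletal muscle markers to at most 17.3 CPM.

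To show the DNA in front of these genes, the 250 bases before the annotated start were read from RefSeq (build GRCr8), whose promoter table held 7 of the 9 genes. The searched letters were the ARE core TGACNNNGC, the AP-1 motif TGACTCA and the interferon-response core, GAAA followed after 2 free bases by GAAA, each on both strands over 250 bases before and 50 after the start. An ARE core whose free letters are TCA holds the AP-1 letters too. The ARE core was found in 12.1% of 33469 promoters, the AP-1 motif in 4.63% and the interferon-response core in 3.92%. Of the 7 genes, Gclm and Txnrd1 held the ARE core, and Srxn1 held the AP-1 motif at 2 places, neither part of an ARE core. None of the 3 motifs was found in the windows of Nqo1, Nqo2, Gclc or Slc7a11, which says only that these letters are absent there. Shown are the upstream bases of Srxn1 (chr3:161064562-161064811, + strand) and Txnrd1 (chr7:22755905-22756154, − strand), the pair that rose with injury and had the highest correlation over the 9 libraries, of Gclm (chr2:213031885-213032134, + strand), which went the other way, and of Nqo2 (chr17:31143663-31143912, − strand), which stood apart with G15. Capitals mark the motif letters, which lie on the opposite strand in each case, at positions -78 to -70 in Txnrd1, -172 to -164 in Gclm and -62 to -56 in Srxn1, and at the end of Srxn1, where the second match runs from -5 to 2 and is shown up to the start. The second Txnrd1 start in the table held no motif.
Srxn1: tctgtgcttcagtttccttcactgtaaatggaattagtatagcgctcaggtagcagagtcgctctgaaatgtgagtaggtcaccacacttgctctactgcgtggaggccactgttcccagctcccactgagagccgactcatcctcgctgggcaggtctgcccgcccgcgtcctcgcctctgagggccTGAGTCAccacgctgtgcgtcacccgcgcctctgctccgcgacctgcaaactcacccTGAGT
Txnrd1: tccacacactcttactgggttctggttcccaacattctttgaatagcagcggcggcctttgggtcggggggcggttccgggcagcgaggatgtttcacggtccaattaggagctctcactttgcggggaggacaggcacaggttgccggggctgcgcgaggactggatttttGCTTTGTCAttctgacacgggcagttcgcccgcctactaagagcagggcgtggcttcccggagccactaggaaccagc
Gclm: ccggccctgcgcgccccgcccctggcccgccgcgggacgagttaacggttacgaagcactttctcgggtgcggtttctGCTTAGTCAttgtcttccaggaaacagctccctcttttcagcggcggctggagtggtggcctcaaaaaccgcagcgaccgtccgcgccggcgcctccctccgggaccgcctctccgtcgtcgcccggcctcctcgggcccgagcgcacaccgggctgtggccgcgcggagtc
Nqo2: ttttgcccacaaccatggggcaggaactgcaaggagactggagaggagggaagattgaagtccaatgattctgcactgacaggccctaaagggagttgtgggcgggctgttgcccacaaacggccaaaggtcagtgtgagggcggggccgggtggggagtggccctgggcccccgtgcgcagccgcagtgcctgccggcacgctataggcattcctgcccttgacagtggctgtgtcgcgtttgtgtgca

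The 9 genes showed 5 patterns. Srxn1 and Txnrd1 rose with injury and stood at about the same level with G15 added. Gclc and Gclm fell with injury in both comparisons with sham, although the fall of Gclc with G15 was less stable. Nqo1 and Gsr did not pass the test in either, and the barely expressed Slc7a11, which the filter left untested, did not pass without the filter. Hmox1 rose with injury and stood higher again in the G15 group. Nqo2 rose with injury and stood far below sham in the G15 group.

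**Figure D1:**
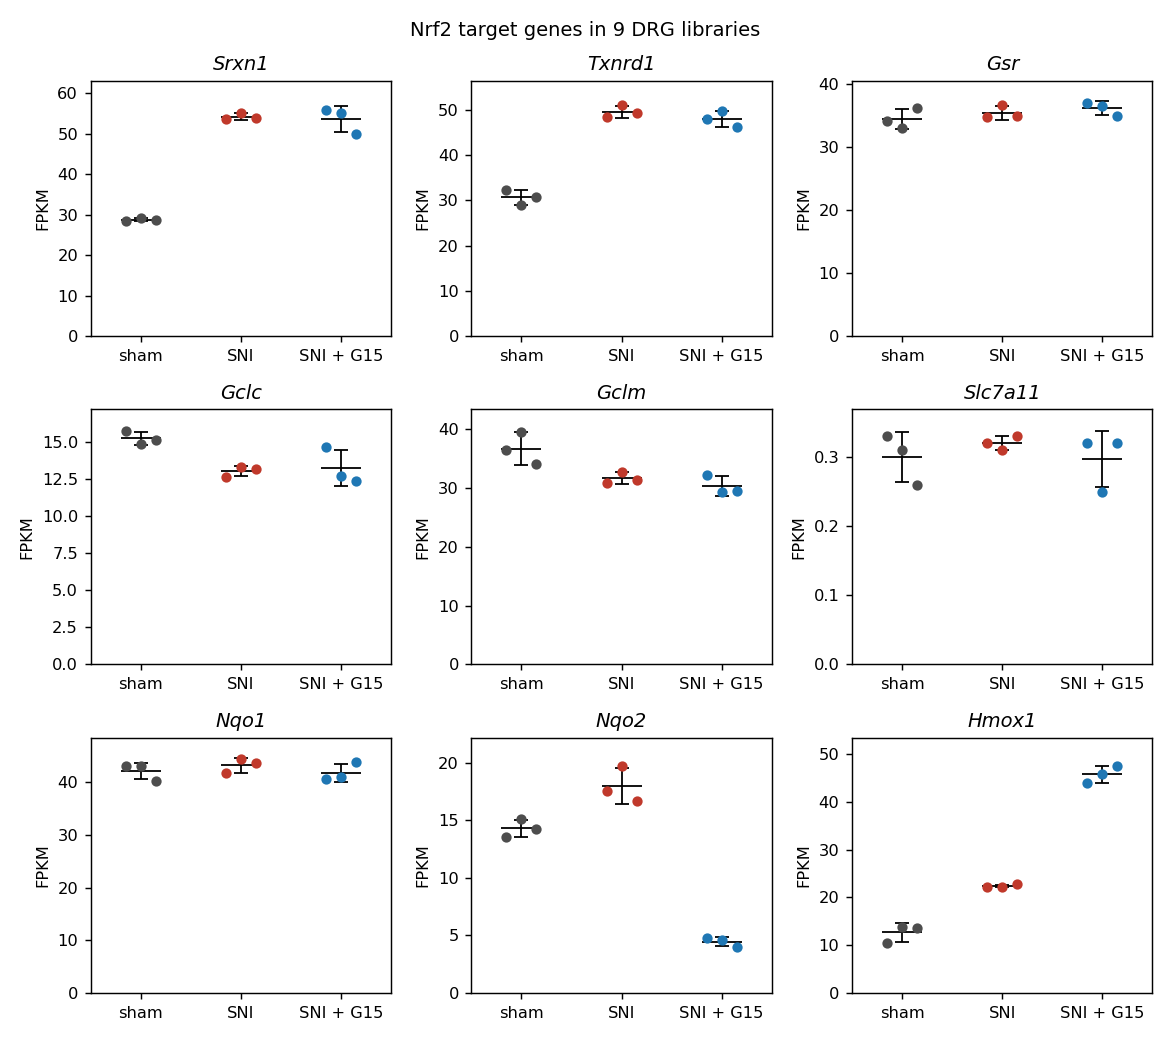
FPKM (y axis, from 0, own scale per panel) of the 9 Nrf2 target genes by group (x axis). Points are libraries, and the bar and whiskers are the mean and SD of 3. Srxn1 and Txnrd1 stand higher in both injured groups, Hmox1 steps up from group to group, and Nqo2 lies between 4.01 and 4.73 FPKM in the SNI + G15 libraries against at least 13.58 elsewhere.

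Against sham, 6 of the 8 tested genes passed an adjusted p of 0.05 after SNI (edgeR, quasi-likelihood), with 4 higher and 2 lower. Of all tested genes, 45.7% passed (23.3% higher, 22.4% lower), which is the background for the count of 6. In all 6 genes the 3 SNI libraries lay wholly above or below the 3 sham libraries, which held for 55.3% of all tested genes (27.2% higher, 28.1% lower). The median log2 fold change of the 8 was 0.15, beside 0.001 over all tested genes. For SNI + G15 against sham, 6 of 8 passed as well, 3 higher and 3 lower, where 43.2% of all genes passed (21.4% higher, 21.9% lower). The groups of those 6 did not overlap, as in 53.9% of all tested genes (28.1% higher, 25.8% lower), and the median log2 fold change of the 8 was -0.01. Both comparisons share the sham libraries, and each shares its other group with the contrast that chose Hmox1 and Nqo2, so they are not separate evidence. In whole-ganglion RNA, fewer cells of a type and less RNA per cell cannot be told apart.

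**Figure D2:**
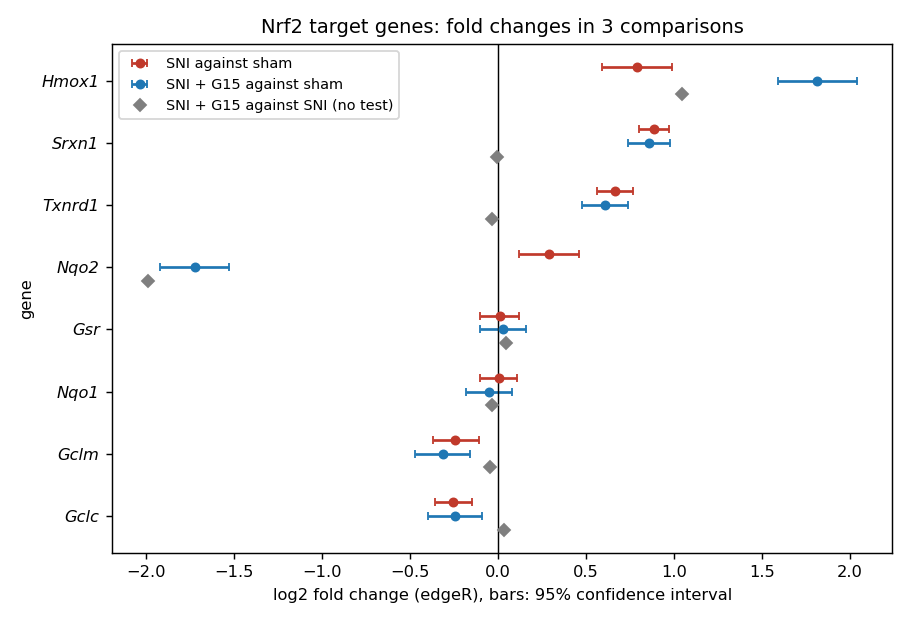
Log2 fold change (x axis, edgeR) of the 8 tested Nrf2 target genes (y axis). Circles with 95% confidence intervals are the comparisons with sham, and grey diamonds the SNI + G15 against SNI values, given without interval because that contrast chose Hmox1 and Nqo2. Both circles share the sham libraries. Hmox1 is plotted at 0.79 and 1.81 and Nqo2 at 0.29 and -1.72.

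The thioredoxin system keeps protein cysteines reduced, and it holds the members that changed most steadily. Srxn1 (NCBI gene 296271), sulfiredoxin, which repairs over-oxidised peroxiredoxins, was measured at 28.42, 29.17 and 28.70 FPKM in the sham libraries. Its SNI libraries gave 53.60, 55.26 and 53.96 FPKM, and the SNI + G15 libraries 55.85, 55.26 and 49.91. Every injured library thus lay above every sham library, and both injured groups overlapped. Srxn1 rose 1.85-fold with SNI (log2 fold change 0.89 ± 0.04 SE, adjusted p = 2.92e-08, edgeR) and 1.82-fold with SNI + G15 against sham (0.86 ± 0.06, adjusted p = 1.82e-06). Its estimated counts were not whole numbers in 9 of 9 libraries, so some of its reads were shared out between this gene and another sequence, and its level is less certain for that.

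Txnrd1 (58819), the cytosolic selenoenzyme that reduces thioredoxin with NADPH, gave 32.24, 28.90 and 30.79 FPKM in sham. SNI libraries held 48.51, 51.10 and 49.32 FPKM and SNI + G15 libraries 48.08, 49.83 and 46.17. Again the injured libraries stood apart from sham and overlapped with each other. Txnrd1 rose 1.59-fold with SNI (log2 fold change 0.67 ± 0.05 SE, adjusted p = 1.05e-06) and 1.53-fold with SNI + G15 (0.61 ± 0.06, adjusted p = 2.03e-05, both edgeR). Across the 9 libraries Srxn1 and Txnrd1 had a Pearson correlation of 0.987 in log2 CPM, a description over libraries that share the 3 groups. Srxn1 FPKM per Txnrd1 FPKM was 0.941 ± 0.0644 (SD, n = 3) in sham, 1.09 ± 0.0118 in SNI and 1.12 ± 0.0409 in SNI + G15.

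Glutathione is made from glutamate and cysteine by glutamate-cysteine ligase, whose catalytic subunit is Gclc and whose modifier subunit, which makes the enzyme more efficient, is Gclm. Gclc (25283) was at 15.71, 14.86 and 15.12 FPKM in sham, at 12.62, 13.31 and 13.14 in SNI, and at 14.62, 12.71 and 12.34 in SNI + G15. All injured libraries were below the sham libraries, the first SNI + G15 library only just. Gclc fell to 0.838 of sham with SNI (log2 fold change -0.26 ± 0.05 SE, adjusted p = 0.00128, edgeR). With SNI + G15 it fell to 0.845 of sham (-0.24 ± 0.07, adjusted p = 0.0183), a call lost without sham replicate 1 (adjusted p = 0.0651), sham replicate 3 (0.0515) or SNI + G15 replicate 2 (0.0796), and in limma on FPKM (0.0546 with a pseudocount of 1), leaving 5 of 8 called.

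Gclm (29739) gave 36.37, 39.57 and 34.01 FPKM in sham, 30.78, 32.78 and 31.31 in SNI, and 32.22, 29.29 and 29.46 in SNI + G15. The lowest sham library was above the highest injured library. It fell to 0.845 of sham with SNI (log2 fold change -0.24 ± 0.06 SE, adjusted p = 0.00699, edgeR) and to 0.805 with SNI + G15 (-0.31 ± 0.07, adjusted p = 0.00485). The ratio of Gclm to Gclc FPKM, 2.41 ± 0.222 (SD, n = 3) in sham, 2.43 ± 0.0411 in SNI and 2.30 ± 0.0919 in SNI + G15, overlapped across the groups, since both subunits fell by a similar share. Markers of the main resident cells moved beside both subunits. The summed level of 8 Schwann cell markers was between 11000 and 11200 CPM in sham, between 6140 and 6290 in SNI and between 6700 and 6930 in SNI + G15, and 5 of 8 passed as lower with SNI and 0 as higher. Sensory neuron markers summed to between 20500 and 21300 CPM in sham, between 18200 and 18800 in SNI and between 18300 and 19500 in SNI + G15, with 6 of 10 lower and 2 higher with SNI. The part of these cells in the fall of Gclc and Gclm was not tested.

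Gclm carries the ARE core printed above, as Txnrd1 does, and the 2 genes moved in opposite directions. These letters stand in 12.1% of all promoters searched, and whether Nrf2 binds either site was not tested.

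Slc7a11 (310392), the light chain of the cystine-glutamate antiporter that brings in cystine for glutathione, was close to the detection limit. Its 9 libraries lay between 0.25 and 0.33 FPKM, from 38.2 to 55.33 estimated reads, and the groups overlapped. When no filter on low values was applied, its log2 fold change was -0.11 ± 0.19 (SE, adjusted p = 0.698, edgeR) with SNI and -0.08 ± 0.19 (adjusted p = 0.796) with SNI + G15 against sham. Gsr (116686), glutathione reductase, which returns oxidised glutathione to its reduced form, gave 34.12, 33.10 and 36.21 FPKM in sham, 34.74, 36.67 and 34.88 in SNI, and 37.04, 36.56 and 34.96 in SNI + G15. The 3 groups overlapped. The log2 fold change of Gsr was 0.009 with SNI (95% interval -0.10 to 0.12, adjusted p = 0.89, edgeR) and 0.03 with SNI + G15 (-0.10 to 0.16, adjusted p = 0.696), so a change beyond these bounds was not detected at this depth.

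The 2 quinone reductases differed in pattern. Nqo1 (24314), the NAD(P)H quinone reductase often read as the standard Nrf2 target, gave 42.99, 43.06 and 40.28 FPKM in sham, 41.66, 44.32 and 43.59 in SNI, and 40.56, 40.91 and 43.79 in SNI + G15. All 3 groups overlapped. Its log2 fold change was 0.007 with SNI (95% interval -0.10 to 0.11, adjusted p = 0.919, edgeR) and -0.05 with SNI + G15 against sham (-0.18 to 0.08, adjusted p = 0.526). In sham it had the highest level of the 9 genes on the FPKM scale, and after SNI it came behind Srxn1 and Txnrd1.

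Nqo2 (291084) encodes the related quinone reductase that uses dihydronicotinamide riboside in place of NAD(P)H. Sham libraries held 13.58, 15.08 and 14.25 FPKM and SNI libraries 17.55, 19.72 and 16.66. SNI + G15 libraries held 4.73, 4.62 and 4.01 FPKM, from 96 to 109 estimated reads against 323 to 463 in the other 6 libraries. The 3 groups did not overlap. Nqo2 rose 1.22-fold with SNI (log2 fold change 0.29 ± 0.08 SE, adjusted p = 0.00941, edgeR) and was at 0.303 of sham with SNI + G15 (-1.72 ± 0.09, adjusted p = 3.52e-07), where the low SNI + G15 libraries are the ones for which it was chosen.

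Nqo1 FPKM was 2.95 ± 0.188 times Nqo2 FPKM in sham (SD, n = 3), 2.41 ± 0.188 times in SNI and 9.45 ± 1.28 times in SNI + G15. Of the 3 annotated transcripts of Nqo2, NM_001004214.1 held 81.1% of its FPKM in sham, 83.0% in SNI and 80.8% in SNI + G15, with mean levels of 11.6, 14.9 and 3.60 FPKM. The second transcript, XM_006253868.3, held 15.8%, 14.6% and 16.9% in the same order. Both transcripts thus stood lower in the G15 group, in about the same proportion to each other. All other members had a single transcript in the table, except Slc7a11 with 2.

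Hmox1 (24451), heme oxygenase 1, which opens heme to biliverdin, carbon monoxide and iron, gave 10.44, 13.91 and 13.69 FPKM in sham, 22.27, 22.29 and 22.73 in SNI, and 43.98, 45.90 and 47.58 in SNI + G15. The 3 groups formed separate steps, and sham replicate 1 stood below the other sham libraries. Hmox1 rose 1.73-fold with SNI (log2 fold change 0.79 ± 0.09 SE, adjusted p = 4.86e-05, edgeR) and 3.52-fold with SNI + G15 against sham (1.81 ± 0.10, adjusted p = 6.87e-07). In the latter comparison the high SNI + G15 libraries are the ones for which Hmox1 was chosen. In FPKM it stood above only Slc7a11 in sham (12.7 ± 1.94, SD, n = 3), with a range overlapping that of Nqo2 (14.3 ± 0.751), and in SNI + G15 (45.8 ± 1.80) it was exceeded only by Srxn1 (53.7 ± 3.27) and Txnrd1 (48.0 ± 1.83), the latter with an overlapping range. Against Hmox2, its constitutive relative, Hmox1 FPKM was 0.175 ± 0.0211 of the Hmox2 level in sham, 0.356 ± 0.00462 in SNI and 0.753 ± 0.0238 in SNI + G15. Hmox2 itself fell with SNI (log2 fold change -0.23 ± 0.06, adjusted p = 0.0059) and with SNI + G15 against sham (-0.29 ± 0.07, adjusted p = 0.00798, both edgeR).

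Between SNI + G15 and SNI, the contrast that chose Hmox1 and Nqo2, the values are given as a description. Hmox1 was 2.06-fold higher (log2 fold change 1.05) and Nqo2 at 0.252 of its SNI level (-1.99). The other 6 tested genes lay between -0.05 (Gclm) and 0.04 (Gsr), and their groups overlapped. The 2 of 8 that did not overlap were Hmox1 and Nqo2, so that count was fixed by the choice of genes. Over all tested genes, 38.9% did not overlap (19.4% higher, 19.6% lower). Of all tested genes, 15.2% passed the test in this contrast, and nothing is read from either share for these genes.

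Macrophages are a known source of Hmox1 in injured nerve, and most of their markers rose beside it with SNI. The summed level of 10 macrophage markers was between 533 and 585 CPM in sham, between 1100 and 1150 CPM in SNI and between 1290 and 1320 CPM in SNI + G15. That sum leans on Lyz2, with means of 353, 756 and 878 FPKM in sham, SNI and SNI + G15. The next highest marker, Aif1, had 17.7, 41.8 and 44.9 FPKM. After SNI, 9 of the 10 passed as higher, among them Cd68, a lysosomal protein, with a log2 fold change of 1.42 ± 0.07 (adjusted p = 1.32e-07, edgeR), and the tenth, the scavenger receptor gene Cd163, stood at -0.06 ± 0.08 (adjusted p = 0.59). Between SNI + G15 and SNI, 3 passed as higher (Cd163 at 0.48 ± 0.06, adjusted p = 0.00146, Mrc1 at 0.31 ± 0.07, adjusted p = 0.0181, and Lyz2 at 0.23 ± 0.03, adjusted p = 0.0025) and 1 as lower (Ptprc at -0.43 ± 0.08, adjusted p = 0.00991, all edgeR). In that contrast 5 of the 10 had a positive log2 fold change, and the median was 0.063, so the markers did not rise as a set there. Per 1000 CPM of these markers, a ratio that leans on Lyz2 too, Hmox1 stood at 36.1 ± 4.98 CPM in sham (SD, n = 3), 30.3 ± 1.07 in SNI and 54.3 ± 2.79 in SNI + G15. The sham and SNI ranges of this ratio overlapped, and the 3 SNI + G15 libraries lay above both.

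Red cell RNA, a source of heme genes in tissue, moved differently. The 9 erythroid markers in the table summed to between 65.5 and 67.4 CPM in sham, 214 and 220 in SNI and 124 and 146 in SNI + G15, and all 7 that were tested passed as higher with SNI and as lower in SNI + G15 against SNI. Fibroblast markers summed to between 1410 and 1430 CPM in SNI and between 1890 and 1930 in SNI + G15, with 7 of 8 passing as higher, and satellite glia markers to between 792 and 816 and between 998 and 1020 CPM, with 3 of 6 higher and 2 lower. The part of any cell type in the values of Hmox1 and Nqo2 was not tested.

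The genes whose log2 CPM followed Hmox1 most closely over the 9 libraries were Apod (Pearson r = 0.992), Ninj1 (0.992), Tf (0.992), Eef1g (0.992) and Vim (0.991). Apod went from a mean of 935 FPKM in sham to 1450 in SNI and 2380 in SNI + G15, and Vim from 585 to 737 to 999. Those nearest to Nqo2 were Irf9 (r = 0.987), RT1-T24-4 (0.987), Irf7 (0.986), Casr (0.982) and Rsad2 (0.980). Irf7 stood at 41.0, 42.0 and 16.5 FPKM and Rsad2 at 11.2, 10.8 and 2.94 FPKM in sham, SNI and SNI + G15. The sham and SNI ranges of Irf7 and of Rsad2 overlapped in FPKM, so neither shared the separate rise of Nqo2 with SNI. All 5 genes were low in the SNI + G15 libraries. With 9 libraries in 3 groups, such correlations mainly order genes by their 3 group means. The estimated counts of Eef1g, RT1-T24-4 and Casr were not whole in all 9 libraries.

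**Figure D3:**
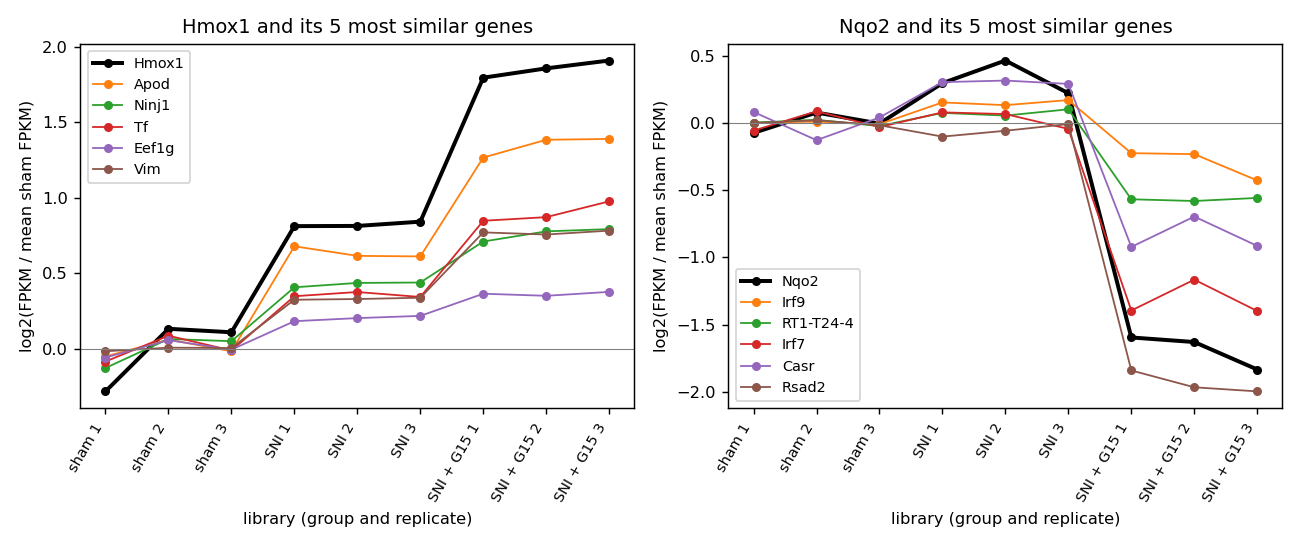
Log2 of FPKM over the mean sham FPKM (y axis) in each of the 9 libraries (x axis) for Hmox1 (left) and Nqo2 (right), in black, with the 5 genes of highest Pearson correlation. The Hmox1 set rises at each step, with Hmox1 the steepest line, and the Nqo2 set drops in the 3 SNI + G15 libraries.

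The regulators of the response were measured too. Nfe2l2, which encodes Nrf2, was at 20.42, 20.75 and 19.29 FPKM in sham, 24.98, 25.22 and 23.17 in SNI and 25.62, 25.12 and 23.85 in SNI + G15. It rose with SNI (log2 fold change 0.25 ± 0.05 SE, adjusted p = 0.00195, edgeR) and with SNI + G15 against sham (0.25 ± 0.06, adjusted p = 0.00491), and SNI + G15 and SNI differed by 0.02 ± 0.05 (adjusted p = 0.81). Keap1 had a log2 fold change of -0.16 ± 0.06 with SNI (adjusted p = 0.0355), a call that was lost without sham replicate 1 (0.0698), sham replicate 3 (0.129), SNI replicate 1 (0.114) or SNI replicate 2 (0.111), and in limma on FPKM (0.0808 with a pseudocount of 1, 0.0823 with 0.1). With SNI + G15 against sham it was at -0.22 ± 0.06 (adjusted p = 0.0176), lost without sham replicate 3 (0.0743) or SNI + G15 replicate 2 (0.0681) and in limma (0.0522 and 0.0531). Nrf2 protein, through which Keap1 acts, was not measured by these libraries.

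Bach1, the repressor that yields ARE sites when heme rises, was at 2.10, 2.17 and 2.46 FPKM in sham, 4.36, 4.08 and 4.16 in SNI and 4.15, 3.27 and 3.27 in SNI + G15. Bach1 rose with SNI (log2 fold change 0.90 ± 0.09, adjusted p = 1.84e-05) and with SNI + G15 (0.64 ± 0.12, adjusted p = 0.00222), and the difference between the injured groups was -0.24 ± 0.09 (adjusted p = 0.12, all edgeR). Without SNI + G15 replicate 1 that difference was -0.354 and passed as lower (adjusted p = 0.0201, edgeR). The counts of Bach1 were not whole in 9 of 9 libraries. Of the small Maf partners, Mafk rose in both comparisons with sham (0.34 ± 0.05, adjusted p = 0.00041, and 0.33 ± 0.06, adjusted p = 0.00143), and Mafg passed in neither (-0.09 ± 0.05, adjusted p = 0.153, and -0.10 ± 0.06, adjusted p = 0.206). Mafg did pass as lower with SNI without sham replicate 2 (-0.132, adjusted p = 0.0221, edgeR). Maff stood at 0.25 ± 0.13 with SNI (adjusted p = 0.155) and rose with SNI + G15 against sham (0.61 ± 0.14, adjusted p = 0.00467). It also passed between SNI + G15 and SNI (0.39 ± 0.10, adjusted p = 0.0295), a call lost without SNI replicate 1 (0.103), 2 (0.106) or 3 (0.0659), without SNI + G15 replicate 3 (0.0512) and in DESeq2 (0.112). Of the 10 regulators tested, Maff was the only one to pass in that contrast with all libraries in edgeR (10%, beside 15.2% of all tested genes).

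**Figure D4:**
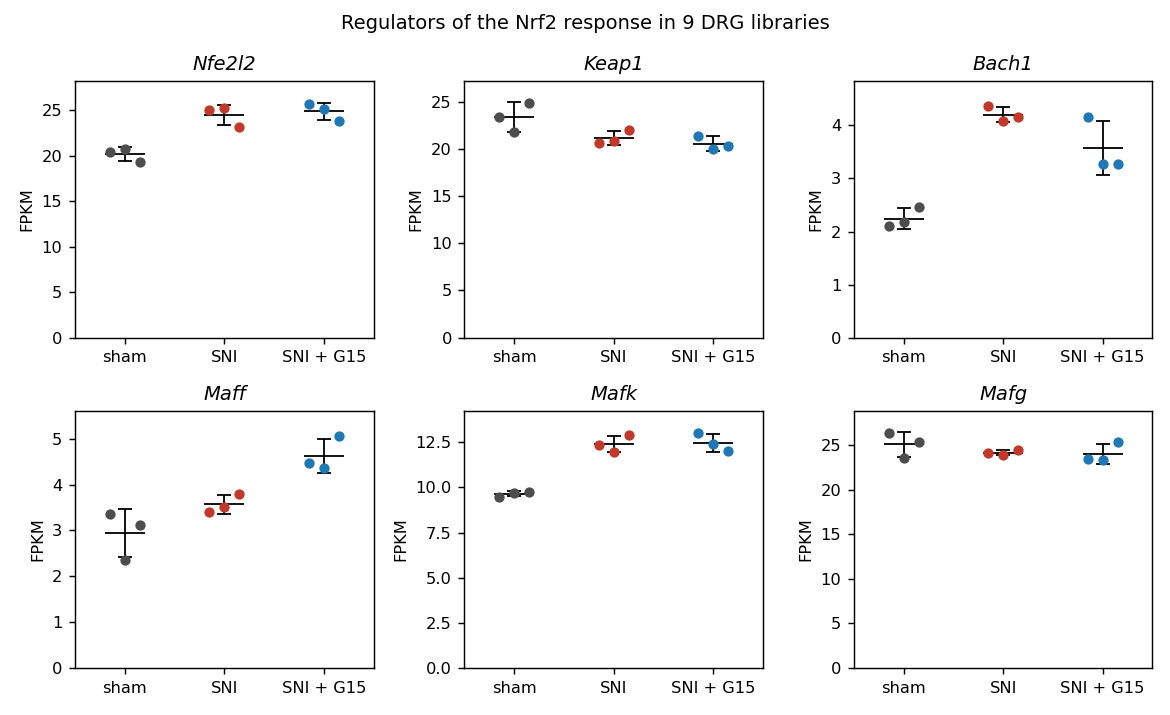
FPKM (y axis, from 0, own scale per panel) of 6 regulators of the Nrf2 response in the 3 groups (x axis). Points are libraries and the bar and whiskers the mean and SD of 3. Nfe2l2, Mafk and Bach1 stand higher in both injured groups than in sham, and the ranges of Mafg overlap.

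The wider pathway was read from 94 further genes in 7 lists, all in the table and 88 of them tested. With SNI, 45 passed, 23 higher and 22 lower (51.1% of 88, beside 45.7% of all tested genes), and their median log2 fold change was -0.03. With SNI + G15 against sham, 46 passed, 29 higher and 17 lower (52.3% of 88, beside 43.2% of all tested genes, 21.4% higher and 21.9% lower), with a median of 0.06. In SNI + G15 against SNI, 25 passed, 22 higher and 3 lower (28.4% of 88), with a median of 0.11 beside 0.006 over all tested genes, of which 15.2% passed, 7.98% as higher and 7.25% as lower. Leaving out a SNI library lowered that count to 15 (replicate 1), 10 (replicate 2) or 13 (replicate 3), and the count over all genes from 2179 to 1098, 925 and 893.

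**Figure D5:**
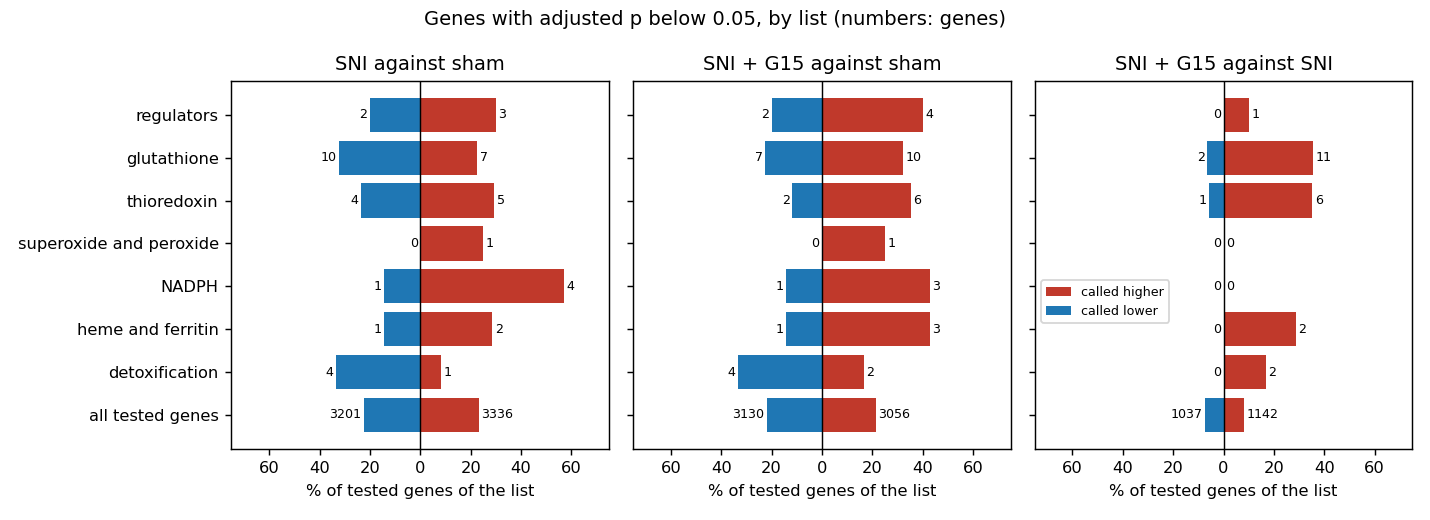
Percent of the tested genes of each list (x axis, bars from 0) with an adjusted p below 0.05, higher to the right and lower to the left, in the 3 comparisons (panels), with the bar of all tested genes at the foot. Numbers beside the bars are genes. In SNI + G15 against SNI the glutathione list has 11 higher and 2 lower and the thioredoxin list 6 higher and 1 lower, and the NADPH list has none.

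Among 31 glutathione genes tested, 7 rose and 10 fell with SNI (54.8%, beside 45.7% of all tested genes), the median log2 fold change being -0.11. Ggt5, which cleaves glutathione conjugates outside the cell, rose (1.10 ± 0.06, adjusted p = 1.41e-07, edgeR) and so did the peroxidase gene Gpx2 (0.76 ± 0.05, adjusted p = 6.6e-07). The glutathione-degrading enzyme gene Chac1 fell (-0.72 ± 0.07, adjusted p = 2.21e-05). Gsta4, a transferase that conjugates lipid peroxidation products, also fell (-0.71 ± 0.08, adjusted p = 3.85e-05), and its counts were not whole in 9 of 9 libraries. In SNI + G15 against SNI, 11 rose and 2 fell (41.9%, beside 15.2% of all tested genes), with a median of 0.20. Without SNI replicate 2 or SNI replicate 3, 6 rose. The secreted peroxidase gene Gpx3 was at 10.36, 11.81 and 10.80 FPKM in sham, 9.53, 10.53 and 11.14 in SNI and 18.63, 21.56 and 19.34 in SNI + G15. Gpx3 rose there (log2 fold change 0.94 ± 0.08, adjusted p = 0.00019), as did Gsta4 (0.49 ± 0.07, adjusted p = 0.00294) and the cytosolic peroxidase gene Gpx1 (0.31 ± 0.05, adjusted p = 0.006), and Gstm4 fell (-0.39 ± 0.06, adjusted p = 0.00414, all edgeR). Gsta1 passed with SNI + G15 against sham, but rested on estimated counts of 0, 84.87 and 40.48 in sham, 27.43, 44.85 and 0 in SNI and 0 in all 3 SNI + G15 libraries, where sham and SNI + G15 overlap at 0. The call of Gsta1 was lost in DESeq2 (adjusted p = 0.1), and no fold is given for it.

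Of 17 further thioredoxin and peroxiredoxin genes, 5 rose and 4 fell with SNI (52.9%, beside 45.7% of all tested genes). Without SNI replicate 2 or SNI replicate 3 only 1 fall was called, and without sham replicate 2 or sham replicate 3 the number was 2, while 5 rises were called in each case. Prdx6, a peroxiredoxin that acts on phospholipids, rose (log2 fold change 0.55 ± 0.05, adjusted p = 8.78e-06) along with the glutaredoxin gene Glrx (0.55 ± 0.04, adjusted p = 3.42e-06, both edgeR). Txn1, thioredoxin itself and the substrate of Txnrd1, rose with SNI + G15 against sham (0.55 ± 0.07, adjusted p = 0.000109) and in SNI + G15 against SNI (0.32 ± 0.06, adjusted p = 0.00879, both edgeR). In the latter contrast 6 genes of the list rose and 1 fell (41.2%, beside 15.2% of all tested genes). That count of rises was 3 without SNI replicate 1 or SNI + G15 replicate 2, and 1 without SNI replicate 2 or SNI replicate 3. Prdx3, the mitochondrial peroxiredoxin gene, fell with SNI (-0.25 ± 0.06, adjusted p = 0.00492).

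The 4 superoxide and peroxide genes differed from one another. Sod2, the mitochondrial superoxide dismutase gene, was at 80.41, 79.71 and 77.65 FPKM in sham, 139.22, 140.24 and 141.07 in SNI and 140.36, 136.73 and 141.27 in SNI + G15. It rose with SNI (log2 fold change 0.79 ± 0.03, adjusted p = 2.82e-08) and with SNI + G15 against sham (0.78 ± 0.05, adjusted p = 1.08e-06), and differed by 0.006 between the injured groups (adjusted p = 0.923, all edgeR). Sod1 (0.02 ± 0.07, adjusted p = 0.806), Sod3 (0.11 ± 0.04, adjusted p = 0.077) and Cat (0.09 ± 0.04, adjusted p = 0.0735) did not pass with SNI in edgeR. Sod3 passed as higher in limma on FPKM (0.0338 with a pseudocount of 1, 0.0341 with 0.1) and without sham replicate 3 (0.0228). Cat did so in limma (0.0289 and 0.0284) and without sham replicate 2 (0.0324). In the NADPH list of 7 genes, 4 rose and 1 fell with SNI (71.4%, beside 45.7% of all tested genes). Without SNI replicate 2 the number that rose was 2. The gene that fell was Idh1, a cytosolic isocitrate dehydrogenase gene (-0.22 ± 0.05, adjusted p = 0.00354, edgeR). With G15 added to SNI, edgeR called 0 of 7 (15.2% of all tested genes passed) and DESeq2 0 of 7. In edgeR 1 of 7 had an unadjusted p under 0.05, and without SNI + G15 replicate 1 the number called was 1.

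In the heme and ferritin list, 2 of 7 genes rose and 1 fell with SNI (42.9%, beside 45.7% of all tested genes). The biliverdin reductase gene Blvrb rose (log2 fold change 0.25 ± 0.06, adjusted p = 0.00406), and so did the ferritin light chain gene Ftl1 (0.31 ± 0.04, adjusted p = 9.62e-05, both edgeR). The other biliverdin reductase gene of the list, Blvra, did not pass. Between SNI + G15 and SNI the ferritin heavy chain gene Fth1 rose (0.51 ± 0.06, adjusted p = 0.000836) and Ftl1 rose further (0.37 ± 0.07, adjusted p = 0.00909, edgeR), the latter call being lost without SNI replicate 2 (0.0503). Both ferritin genes had counts that were not whole in 9 of 9 libraries. Of 12 detoxification genes tested, 1 rose and 4 fell with SNI (41.7%, beside 45.7% of all tested genes). The gene that rose, Cbr3 (0.33 ± 0.12, adjusted p = 0.0415), lost its call without sham replicate 2 (0.0816), sham replicate 3 (0.123), SNI replicate 1 (0.0721) or SNI replicate 2 (0.165) and in DESeq2 (0.138). Ephx1, microsomal epoxide hydrolase, fell (-0.84 ± 0.07, adjusted p = 2.97e-06) and so did the aldehyde oxidase gene Aox1 (-0.79 ± 0.07, adjusted p = 6.45e-06). With G15 against SNI, 2 rose and 0 fell (16.7%, beside 15.2% of all tested genes). Among them was the aldo-keto reductase gene Akr1b8 (0.79 ± 0.12, adjusted p = 0.00389, all edgeR), whose counts were not whole in 9 of 9 libraries. The other, Ugt1a6 (0.51 ± 0.14, adjusted p = 0.0423), lost its call without any 1 of SNI replicates 1, 2 and 3 or SNI + G15 replicates 1 and 2, with adjusted p between 0.0523 and 0.136, and 1 gene was then called.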

How the data were processed

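DRG RNA of 9 libraries was sequenced as paired reads of 150 bp. The authors deposited FPKM values, a gene's value being the sum over its transcripts, and estimated counts, which are not normalised and need not be whole. The aligner is not given in the sources used here. The labels list mouse genome builds although the species is rat and the gene identifiers are rat NCBI identifiers, and their extraction text names other cells than the DRG methods do. Columns named for a control were read as sham by elimination. In each of the 2 tables, 9 columns of TPM were not used, nor were the authors' group averages.

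After rounding, the estimated counts of the 14305 genes whose FPKM reached 1 in any library went into edgeR 4.0.16 (quasi-likelihood after TMM scaling, R 4.3.3), with only the 2 groups compared in the fit and Benjamini-Hochberg adjustment. The standard error is the log2 fold change over the root of F. The study's methods name DESeq2. Here DESeq2 1.42.0 and limma 3.58.1 (log2 of FPKM plus 1 or 0.1) served as alternatives, beside other size factors, no filter, all 9 libraries in a fit, a replicate block and leaving out each library. On simulated counts for SNI against sham over 14305 genes, 200 of them changed by 1 on the log2 scale, 100% were recovered with 6 false calls. The changed genes were drawn from those above a minimum count, and the spread between libraries was assumed. Smaller changes, such as those of Gclc and Gclm, and a larger share of changed genes were not simulated.

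The members and lists were chosen with earlier results of these data known. Named were all 9 members, 6 regulators, up to 4 called genes per list, comparison and direction by smallest adjusted p, and the 5 genes most correlated with Hmox1 and with Nqo2. Marker genes were named where a result turns on them, and some genes that the rule selects are not reported here. No pair of libraries held identical values.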

Additional observations from a re-analysis of the deposited data

How the results depend on the processing

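The 13 alternatives left 6 members called in SNI against sham, and 5 or 6 in SNI + G15 against sham, where Gclc was the gene lost. Over all genes the calls stayed within 1.5 times of the main count in both comparisons with sham. In SNI + G15 against SNI, the replicate block gave 1292 genes called in place of 2179, and 15 wider list genes in place of 25; leaving out a library gave between 893 and 2333 genes and between 10 and 26 wider list genes. The cause was not tested. Same-numbered libraries of different groups did not deviate together (correlations of their deviations from -0.12 to 0.09, 0 of 9 above 0.1). Differently numbered libraries were not compared, so these values cannot exclude a pairing or batch by number. The sources do not state that the numbers pair rats, and the block is given here only. Signs turned for genes that were not called, and for 2 members of the untested contrast. In SNI against sham, Nqo1 went to -0.002 with all 9 libraries in a fit and to between -0.02 and 0.03 with a library left out, Gsr to between -0.02 and 0.051, and Sod1 to between -0.037 and 0.10. In SNI + G15 against sham, Sod1 lay between -0.083 and 0.092 with a library left out. In SNI + G15 against SNI, limma gave -0.008 for each of Mafg, Sod1 and Sod2, and leaving out a library gave -0.031 to 0.029 for Mafg, -0.013 to 0.048 for Mafk, -0.016 to 0.045 for Nfe2l2, -0.096 to 0.069 for Sod1, -0.01 to 0.021 for Sod2 and -0.062 to 0.06 for Cat, with -0.037 to 0.075 for Gclc and -0.026 to 0.04 for Srxn1. In limma on log2 of FPKM plus 1, Hmox1 was at 0.998 and Nqo2 at -1.80 in that contrast. With 3 libraries per group, changes of low genes such as Slc7a11 (at most 55.33 estimated reads) are the least precise.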
